A study of Homo sapiens with 4 samples.

Results

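The mitochondrial ribosomal protein genes are the nuclear genes for the proteins of the ribosome inside mitochondria, and their transcripts were followed in renal carcinoma cells given the chemokine MCP-1. Members were all array rows whose listed symbol is MRPL or MRPS plus a number, with the row of the highest mean where a gene had several. The rule found 74 genes, each with 1 row, of 17687 named genes on the array: 47 with large subunit symbols (MRPL) and 27 with small subunit symbols (MRPS). The cells were 786-O (CRL-1932 in the sample labels), an established line from a clear cell renal cell carcinoma that lacks functional VHL, grown in RPMI-1640 with serum. The 2 MCP-1-treated samples received 5 ng/mL MCP-1 (monocyte chemoattractant protein 1, CCL2) for 16 h according to the labels, whereas the methods of the study state a longer exposure. The 2 untreated samples were cells of the same passage without added MCP-1. Each group consisted of duplicate dishes of the same line, so the spread between samples is that of dishes and no second line or donor enters the comparison.

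The mitoribosome translates the few mRNAs of the mitochondrial genome, all of which encode hydrophobic subunits of the respiratory chain and ATP synthase. Its RNAs come from mitochondrial DNA, whereas every one of its proteins is encoded in the nucleus, made in the cytosol and imported. The large subunit holds the peptidyl transferase centre and the exit tunnel, and the small subunit decodes the mRNA. Many members descend from bacterial ribosomal proteins, and the others were gained during the evolution of mitochondria. Kidney tubule cells are rich in mitochondria, whereas clear cell carcinomas that lack VHL rely strongly on glycolysis.

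Signals are on a log2 scale, so a difference of 1 is a 2-fold change. The 4 arrays had medians between 6.20 and 6.28 over all probe sets and correlated with each other at 0.9929 to 0.9951. Of 6 renal carcinoma markers with a row (PAX8, PAX2, CA12, VEGFA, VIM and KRT18), 6 were above the background level of 6.11, which is the 90th percentile of the mean signals of 612 negative control probe sets. CD68 was above it among 6 monocyte and macrophage markers, and 0 of 6 lymphocyte and 0 of 5 endothelial markers were. The second MCP-1-treated array had the lowest correlations with the others, 0.9929 to 0.9933, and the highest negative control level, a 90th percentile of 6.70 in that array, against 6.36 in the first MCP-1-treated array and 6.48 and 6.36 in the untreated arrays. Its part in the results below was not tested beyond the values given without it.

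No mitochondrial ribosomal protein gene passed the test. In limma, with group and replicate number as terms and Benjamini-Hochberg adjustment over all 21448 probe sets, 0 of 74 members were called higher, against 0.00932% of all probe sets, and 0 were called lower, against 0.0233%. At an unadjusted p under 0.05, 0 members were higher, against 2.59% of all probe sets, and 0 lower, against 2.36%, which makes 4.95% in either direction over all probe sets and 2.8% over those above background. The same test without the replicate term also gave 0 members at that unadjusted threshold, against 968 of all probe sets. After adjustment it called 0 of all probe sets, so its adjusted count says nothing of the members. With the replicate term, the smallest p among members was 0.109, for MRPL21, and the adjusted p was 1 for every member. These p-values measure no spread beyond that between dishes. They rest mostly on a variance pooled over all probe sets (9.60 prior degrees of freedom), beside 1 residual degree of freedom of each gene. That residual is the disagreement between the differences within replicate 1 and within replicate 2. In bulk RNA of this kind, a difference in some of the cells and a smaller one in all cells cannot be told apart.

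The data bounded the size of any difference. Signal was above the background level for 72 of 74 members. The exceptions were MRPL54 (5.51 and 6.27 in MCP-1-treated cells, against 6.16 and 6.30 in untreated cells) and MRPS31 (5.48 and 5.13 in MCP-1-treated cells, against 5.27 and 5.68 in untreated cells). Log2 differences, MCP-1-treated minus untreated, ran from -0.45 to 0.35 over the 74 members with an SD of 0.19. Over the 10871 probe sets above background that SD was 0.25, and 680 of them, or 6.26%, lay farther from 0 than the most distant member. The median standard error of a member's difference was 0.25, and the 95% interval stayed within a 2-fold change in either direction for 70 members but within 1.5-fold for only 12. For MRPL21, MRPS7, MRPL33 and MRPS18C the interval reached beyond a 2-fold decrease, with -1.08 for MRPS7 as the lowest bound, and no member's interval passed 0.89 on the upper side. A 2-fold increase lay outside the interval of all 74 members. These intervals come from the fit with the replicate term. Without that term, intervals stayed within 2-fold for 69 members and within 1.5-fold for 24, with extreme bounds of -1.24 and 0.99.

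**Figure D1:**
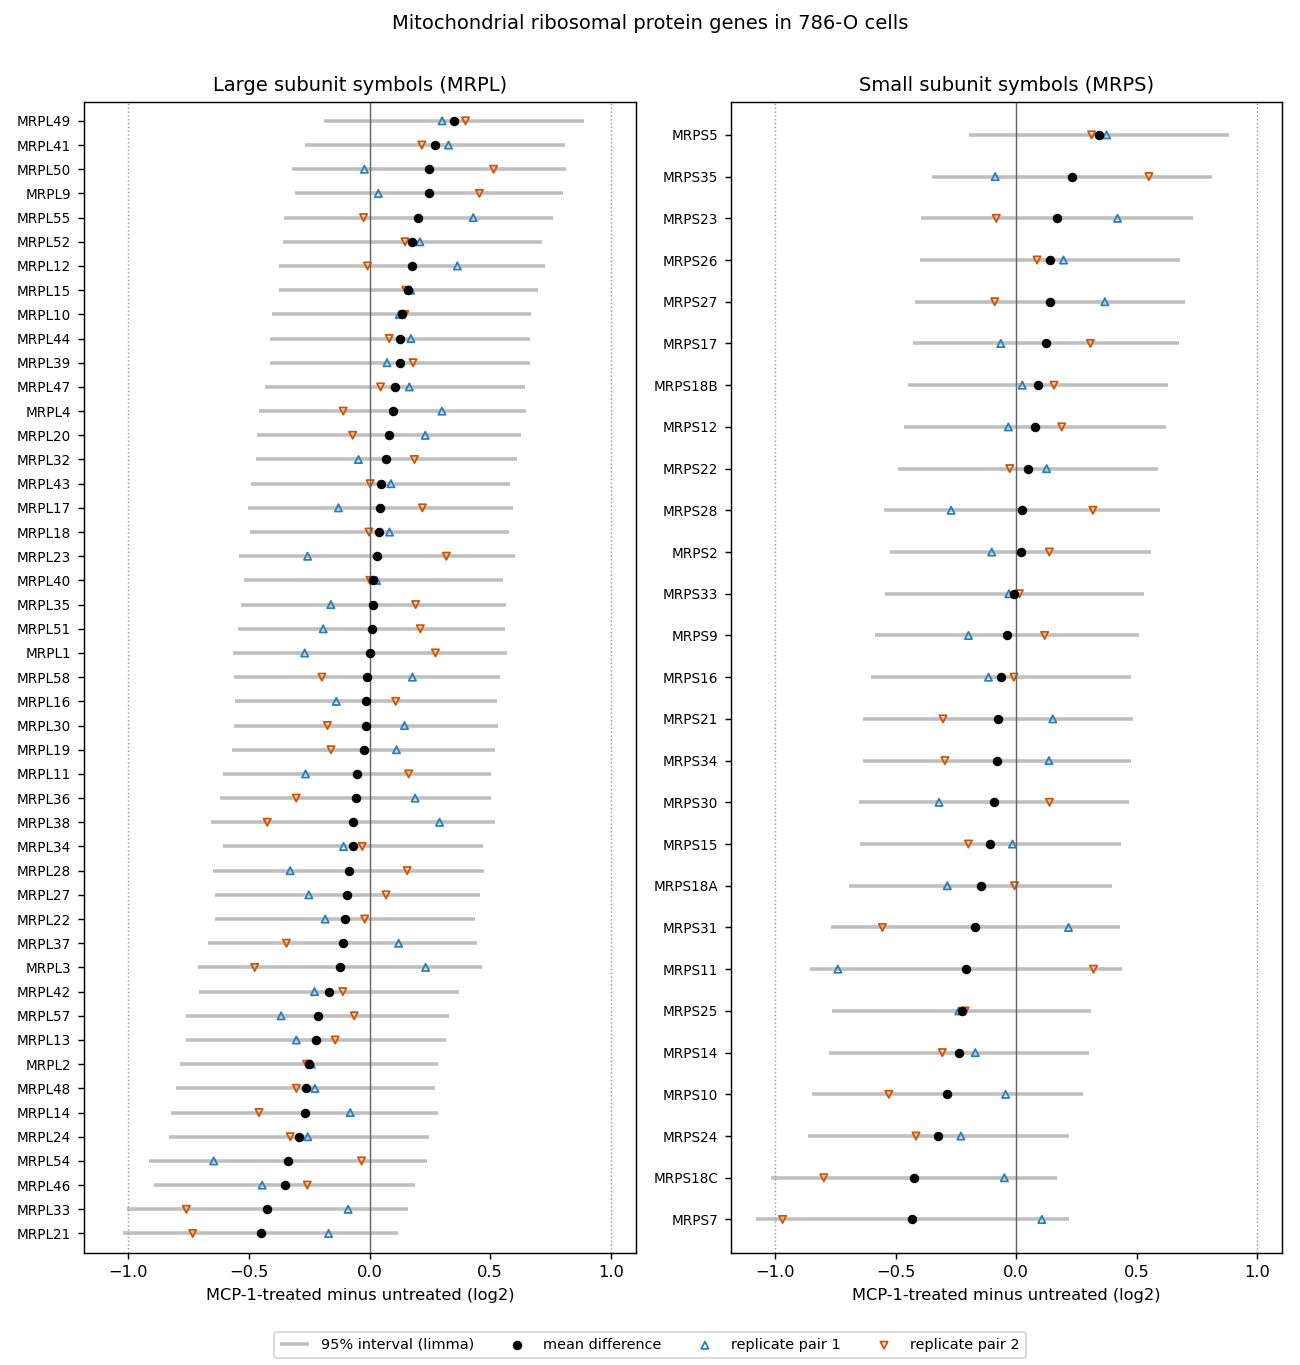
Log2 difference, MCP-1-treated minus untreated, for each of the 47 large subunit (left) and 27 small subunit (right) genes, ordered by size. Black points are mean differences, grey bars 95% limma intervals, triangles the differences within each replicate number, and dotted lines 2-fold changes. All bars span 0, and the widest gaps between triangles are at MRPS11 and MRPS7.

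Neither direction prevailed. The MCP-1-treated mean was higher for 34 members and lower for 40, a higher share of 45.9% against 52.3% of all probe sets tested and 51.2% of those above background. The median log2 difference of the members was -0.015. Both treated arrays lay above both untreated arrays for 9 members, or 12.2%, where 16.3% of all probe sets did so, and below both for 13 members, or 17.6%, where 15.2% did so. The differences within replicate 1 and within replicate 2 had the same sign for 35 members (47.3%), beside 47.7% of the probe sets above background.

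The counts were then taken for each subunit. Of the 47 large subunit genes, 23 had a higher MCP-1-treated mean and the median log2 difference was -0.0099, with 6 genes non-overlapping and higher and 8 non-overlapping and lower. Of the 27 small subunit genes, 11 had a higher MCP-1-treated mean and the median was -0.062, with 3 non-overlapping and higher and 5 lower. These counts stand beside 16.3% of all probe sets non-overlapping and higher and 15.2% lower. The large subunit median exceeded that of the small subunit by 0.052. This gap was 0.022 within replicate 1 and 0.00092 within replicate 2. With each gene centred on its own mean over the 4 arrays, the large subunit median was 0.024 and -0.038 in the MCP-1-treated arrays, against 0.059 and -0.032 in the untreated arrays. For the small subunit these medians were 0.040 and -0.084 in the MCP-1-treated arrays, against 0.086 and -0.022 in the untreated arrays. In both subunits the 2 arrays of a group lay farther apart than the group means, and both groups had an array on either side of 0. Setting single arrays against each other gave member medians of -0.038 and 0.053 for the first MCP-1-treated array against the first and second untreated arrays. The second MCP-1-treated array gave -0.16 and -0.0089 against the same untreated arrays.

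**Figure D2:**
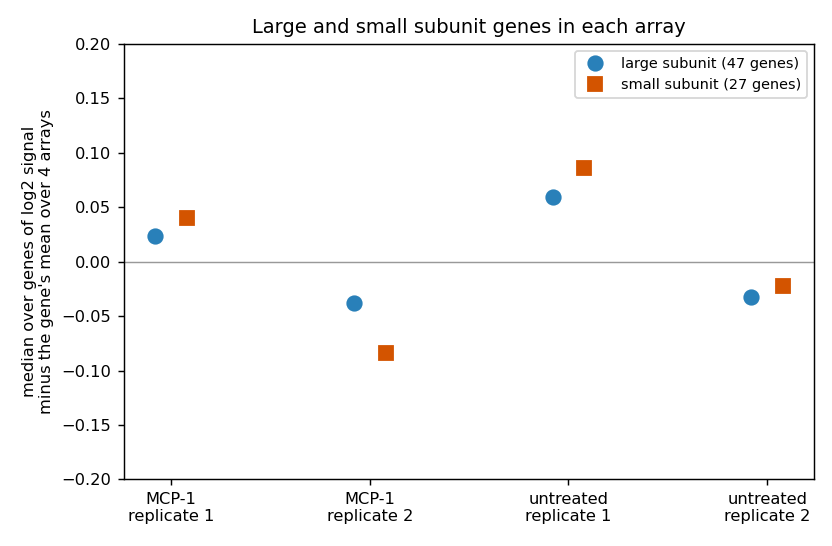
Median over genes of the log2 signal minus each gene's mean over the 4 arrays, by array, for the 47 large subunit genes (circles) and 27 small subunit genes (squares). Each group has 1 array above 0 and 1 below it, and the small subunit ranges from -0.084 in MCP-1-treated replicate 2 to 0.086 in untreated replicate 1.

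Among members with a higher mean in MCP-1-treated cells, MRPL49, a large subunit protein with no bacterial counterpart, had the greatest difference. MRPL49 measured 10.14 and 10.11 in MCP-1-treated cells, against 9.84 and 9.72 in untreated cells, a log2 difference of 0.35 (95% interval -0.19 to 0.89). The arrays of the 2 groups did not overlap. MRPS5, the counterpart of a bacterial protein near the mRNA entry of the small subunit, measured 9.05 and 9.33 in MCP-1-treated cells, against 8.68 and 9.02 in untreated cells, a difference of 0.34 (-0.19 to 0.88). The groups were separated by only the small step between the lower treated and the higher untreated array, and leaving out 1 array gave differences between 0.17 (without the first untreated array) and 0.51 (without the second). MRPL41, another protein particular to mitochondria, measured 8.60 and 8.60 in MCP-1-treated cells, against 8.27 and 8.38 in untreated cells, a difference of 0.27 (-0.27 to 0.81). Its treated arrays were nearly identical and both above the untreated ones.

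The next members by size were higher mainly in the second MCP-1-treated array. MRPL50, a large subunit protein of mitochondria, measured 10.04 and 10.40 in MCP-1-treated cells, against 10.06 and 9.89 in untreated cells. MRPL9, the counterpart of a bacterial large subunit protein, measured 13.17 and 13.40 in MCP-1-treated cells, against 13.14 and 12.95 in untreated cells. Both had a log2 difference of 0.25, and the groups overlapped for MRPL50 but not for MRPL9. Without the second treated array the differences were 0.063 for MRPL50 and 0.13 for MRPL9. MRPS35, a small subunit protein particular to mitochondria, measured 11.49 and 12.00 in MCP-1-treated cells, against 11.57 and 11.45 in untreated cells. Its difference of 0.23 rested on the second treated array, and without that array it was -0.024.

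At the other end stood MRPL21, the counterpart of a bacterial large subunit protein. MRPL21 measured 9.01 and 8.38 in MCP-1-treated cells, against 9.18 and 9.11 in untreated cells, a log2 difference of -0.45 (95% interval -1.02 to 0.12). MRPL33, a small protein of bacterial ancestry in the large subunit, measured 8.48 and 7.83 in MCP-1-treated cells, against 8.57 and 8.59 in untreated cells, a difference of -0.42 (-1.01 to 0.16). In both genes all treated arrays were below the untreated ones, the first by little and the second by far more. MRPS7, a protein of the small subunit head, measured 11.61 and 10.63 in MCP-1-treated cells, against 11.50 and 11.60 in untreated cells, a difference of -0.43 (-1.08 to 0.22). Here the first treated array was the highest of the 4 and the groups overlapped, so that without the second treated array the difference was 0.058. With MRPS18C, described below, these were the 4 lowest members, and each had its lowest value in the second MCP-1-treated array. Without the second MCP-1-treated array, the differences were -0.14 for MRPL21 and -0.10 for MRPL33. Without the first, they were -0.77 for MRPL21, -0.75 for MRPL33, -0.92 for MRPS7 and -0.78 for MRPS18C, each the value of 1 treated array against 2 untreated arrays.

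The remaining genes of this end were MRPL46 and MRPS24. MRPL46, a protein of the central protuberance of the large subunit, measured 9.68 and 9.83 in MCP-1-treated cells, against 10.13 and 10.08 in untreated cells, a log2 difference of -0.35 (95% interval -0.89 to 0.19). Its lowest value was in the first treated array, and without the second the difference was -0.42. MRPS24, the counterpart of bacterial S3 at the mRNA entry, measured 11.23 and 10.83 in MCP-1-treated cells, against 11.46 and 11.24 in untreated cells, a difference of -0.32 (-0.86 to 0.22). The higher treated array of MRPS24 was just below the lower untreated one, and without the second treated array its difference was -0.12.

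**Figure D3:**
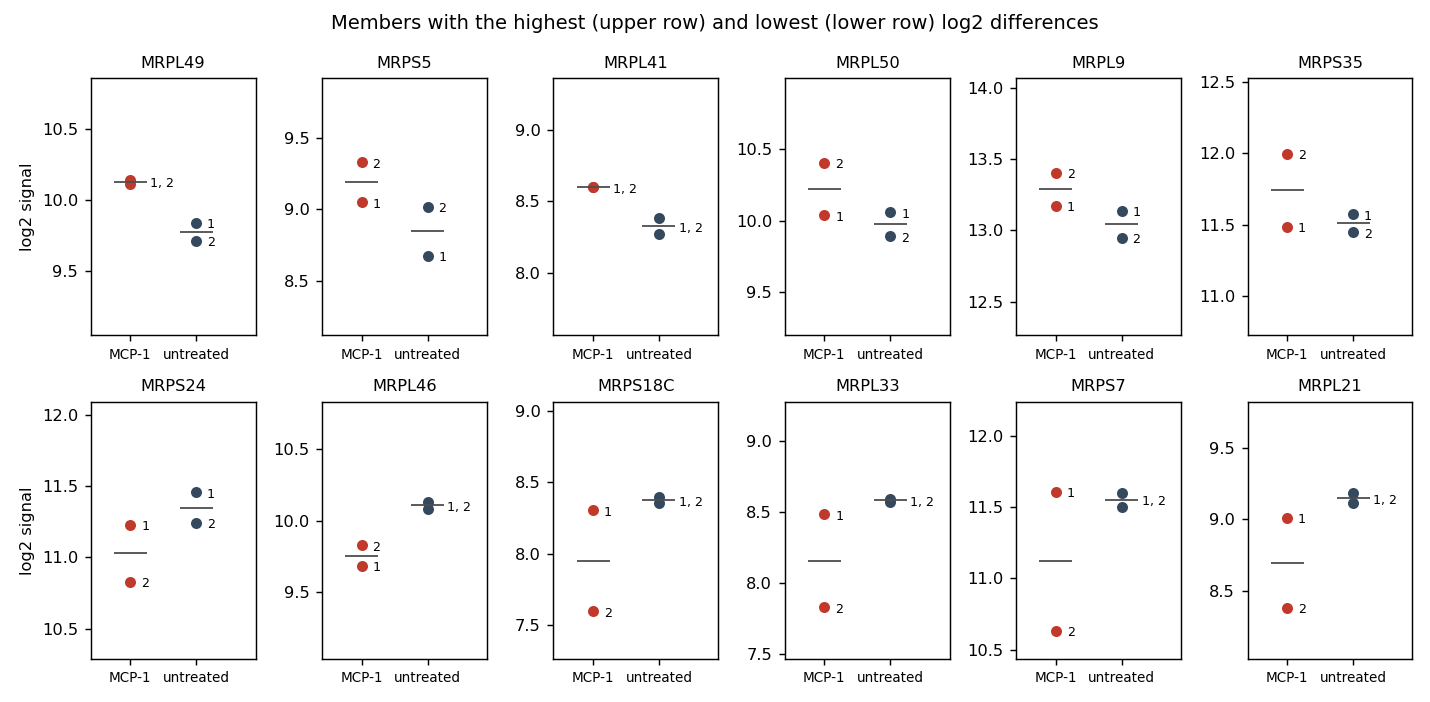
Log2 signal of the 6 members with the highest (upper row) and the 6 with the lowest (lower row) difference among those above background, with 1 point per array, its replicate number beside it and a line at each group mean. Every panel spans the same range of log2 signal, and in the lower row the MCP-1-treated replicate 2 array is the lowest point in all panels but MRPL46.

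Genes were also read by the place of their protein in the ribosome. The stalk, which recruits translation factors, is formed by MRPL10, MRPL11 and MRPL12, and their log2 differences were 0.13, -0.05 and 0.18. Only MRPL10 was non-overlapping, with 8.14 and 8.09 in MCP-1-treated cells, against 8.01 and 7.94 in untreated cells. Of 5 genes for proteins near the peptidyl transferase centre (MRPL2, MRPL3, MRPL4, MRPL16 and MRPL27), 1 had a higher treated mean, and the median was -0.092. The 6 genes listed for the exit tunnel and exit site (MRPL17, MRPL22, MRPL23, MRPL24, MRPL39 and MRPL44) had a median of 0.038. MRPL44 and MRPL39 were both at 0.13 and MRPL24, non-overlapping and lower, at -0.29. MRPL47, an exit site protein outside this list, was non-overlapping and higher, at 0.11. For the central protuberance 5 genes were listed (MRPL38, MRPL40, MRPL46, MRPL48 and MRPL58), with a median of -0.067. MRPL58, which is related to peptide release factors, was at -0.01. This list is partial, and MRPL18, MRPL52 and MRPL55, central protuberance proteins outside it, were at 0.04, 0.18 and 0.20.

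The lists of small subunit places cover only proteins with a bacterial counterpart, 5 of the head (MRPS7, MRPS9, MRPS10, MRPS14 and MRPS24) and 8 of the body and platform. The 5 head genes had lower MCP-1-treated means, with a median log2 difference of -0.29, and 3 of them (MRPS10, MRPS14 and MRPS24) did not overlap between groups, beside 15.2% of all probe sets. Without the second MCP-1-treated array MRPS7 had a higher treated value, as given above. Of head proteins outside the list, MRPS35 and MRPS33 were at 0.23 and -0.0083, and MRPS31, with signal below background, at -0.17. DAP3 and PTCD3, head proteins without an MRPS symbol, were at -0.10 and -0.01. MRPS10 measured 10.37 and 9.88 in MCP-1-treated cells, against 10.41 and 10.41 in untreated cells. MRPS14 measured 10.77 and 10.86 in MCP-1-treated cells, against 10.94 and 11.16 in untreated cells. Both genes had lower treated arrays, MRPS10 chiefly in the second and MRPS14 in both. MRPS9 was at -0.04, with opposite signs in the replicates. Over the 8 body and platform genes the median was -0.069, and 3 had a higher treated mean. For the 5 head genes the medians were -0.17 for replicate 1 and -0.42 for replicate 2, and none of the 5 genes was called. Genes whose protein holds the place of a bacterial counterpart (45) had a median of -0.040, and the others (29, with MRPS18A and MRPS18B counted here) one of 0.0092, with a higher treated mean for 19 and 15 of them.

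MRPS18A, MRPS18B and MRPS18C are paralogs derived from 1 bacterial protein, S18, and they sit at different places: MRPS18A in the large subunit in spite of its symbol, MRPS18B and MRPS18C in the small subunit. MRPS18C measured 8.31 and 7.60 in MCP-1-treated cells, against 8.35 and 8.40 in untreated cells, a log2 difference of -0.42 (95% interval -1.02 to 0.17). The treated arrays were below the untreated ones, and without the second treated array the difference was -0.07. MRPS18B measured 11.86 and 11.87 in MCP-1-treated cells, against 11.83 and 11.71 in untreated cells, a difference of 0.09 (-0.45 to 0.63). MRPS18A measured 10.89 and 10.87 in MCP-1-treated cells, against 11.17 and 10.87 in untreated cells, a difference of -0.15 (-0.69 to 0.40). Only the first untreated array of MRPS18A stood apart. The intervals of the 3 paralogs overlapped widely, and their differences were not tested against each other. MRPS30, also a large subunit protein, measured 13.19 and 13.34 in MCP-1-treated cells, against 13.51 and 13.21 in untreated cells, with overlapping groups. With MRPS18A and MRPS30 counted by place, the large subunit held 49 genes with a median of -0.015 and the small subunit 25 with a median of -0.040.

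Promoter sequences show how the paralogs differ in their start regions. RefSeq windows of 300 bases, with 250 before the annotated start and 50 from it onward (GRCh38.p14), were given for 66 of 74 members, all but MRPL2, MRPL10, MRPL13, MRPL15, MRPL21, MRPL23, MRPL35 and MRPS28. Shown are the 3 paralogs, MRPL33 as the lowest large subunit gene with a window and MRPL49 as the highest member. Capitals mark GCATGCG (NRF1), CCGGAAG (ETS factors, among them GABP) or GATGGCG (YY1), searched on both strands, and all other bases are in lower case. The windows are chr6:43687742-43688041 on the minus strand for MRPS18A, chr6:30617590-30617889 on the plus strand for MRPS18B, chr4:83455808-83456107 on the plus strand for MRPS18C, chr2:27771469-27771768 on the plus strand for MRPL33 and chr11:65121933-65122232 on the plus strand for MRPL49.
MRPS18A: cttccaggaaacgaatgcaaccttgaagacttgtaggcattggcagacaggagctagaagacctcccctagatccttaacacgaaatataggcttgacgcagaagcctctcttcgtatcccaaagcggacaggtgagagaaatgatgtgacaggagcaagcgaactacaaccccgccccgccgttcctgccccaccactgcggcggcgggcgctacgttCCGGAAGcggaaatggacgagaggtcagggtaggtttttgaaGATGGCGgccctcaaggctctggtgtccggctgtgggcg
MRPS18B: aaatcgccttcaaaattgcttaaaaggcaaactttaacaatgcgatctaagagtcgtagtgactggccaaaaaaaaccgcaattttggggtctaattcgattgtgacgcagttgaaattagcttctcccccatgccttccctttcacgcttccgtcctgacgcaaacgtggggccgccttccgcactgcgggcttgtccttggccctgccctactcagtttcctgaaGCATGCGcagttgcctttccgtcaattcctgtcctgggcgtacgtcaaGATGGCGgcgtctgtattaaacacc
MRPS18C: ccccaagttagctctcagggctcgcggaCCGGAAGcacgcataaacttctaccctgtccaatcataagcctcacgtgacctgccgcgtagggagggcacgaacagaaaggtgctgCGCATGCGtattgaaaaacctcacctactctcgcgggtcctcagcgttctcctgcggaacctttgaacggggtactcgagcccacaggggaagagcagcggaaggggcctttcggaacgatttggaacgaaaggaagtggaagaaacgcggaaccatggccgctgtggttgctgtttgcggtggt
MRPL33: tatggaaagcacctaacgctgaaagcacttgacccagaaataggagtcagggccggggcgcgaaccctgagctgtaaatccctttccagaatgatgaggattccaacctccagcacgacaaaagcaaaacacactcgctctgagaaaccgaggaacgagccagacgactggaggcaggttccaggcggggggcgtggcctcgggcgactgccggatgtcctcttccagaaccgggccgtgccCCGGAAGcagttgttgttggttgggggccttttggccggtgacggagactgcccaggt
MRPL49: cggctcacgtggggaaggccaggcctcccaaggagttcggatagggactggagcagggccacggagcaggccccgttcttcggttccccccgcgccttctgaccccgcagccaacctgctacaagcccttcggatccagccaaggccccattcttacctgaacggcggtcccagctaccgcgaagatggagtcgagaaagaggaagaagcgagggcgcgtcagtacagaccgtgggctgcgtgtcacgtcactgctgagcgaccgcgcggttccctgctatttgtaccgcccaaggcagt

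MRPS18A held the ETS letters beginning 31 bases before the start and the YY1 letters beginning at base 12 after it. In MRPS18B the NRF1 letters began 23 bases before the start and the YY1 letters at base 26. MRPS18C held the ETS letters 222 bases before the start and, 135 bases before it, CGCATGCG, in which the NRF1 letters of both strands overlap. MRPL33 held the ETS letters 8 bases before its start, and none of the 3 motifs was found in the MRPL49 window. The paralogs thus each carried a different pair of these motifs, and the 95% intervals of their log2 differences all included 0.

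Over all 66 windows, the ETS letters were found in 28 (42.42%), beside 14.23% of 15842 promoters of protein-coding genes, and the YY1 letters in 16 (24.24%), beside 5.706%. The NRF1 letters were found in 7 (10.61%), beside 5.138%. At least 1 of the 3 was present in 42 windows (63.64%, beside 22.3%) and 2 or more in 8 (12.12%, beside 2.62%). In contrast GGGCGG (SP1) was in 39 windows (59.09%, beside 58.5%), the E-box CACGTG in 5 (7.576%, beside 8.881%) and TTGCATC (the composite site of ATF4) in 0 (beside 1.944%). By subunit, the ETS letters were in 16 of 40 large and 12 of 26 small subunit windows and the YY1 letters in 8 of each. Median log2 differences were -0.038 for members with the ETS letters and -0.011 for those without, -0.079 with the YY1 letters and -0.012 without, and 0.045 with the NRF1 letters and -0.024 without. A match to such letters is a description of the window and says nothing of binding in these cells.

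Many members shared a start region with another gene. A protein-coding gene on the opposite strand began within 1000 bases of 18 of the 66 starts (27.27%), beside 10.29% of all. MRPS11 and MRPL46 are each other's partner, with starts 320 bases apart. MRPS11 measured 10.99 and 11.76 in MCP-1-treated cells, against 11.73 and 11.44 in untreated cells, so its groups overlapped where those of MRPL46 did not, and the log2 differences were -0.21 and -0.35. MRPL49 starts 49 bases from FAU, a gene for a cytosolic ribosomal protein, and the pair had differences of 0.35 and -0.0075. MRPS12, whose bacterial counterpart helps keep decoding accurate, starts 181 bases from SARS2, the mitochondrial seryl-tRNA synthetase gene, with differences of 0.08 and -0.36. None of these 3 pairs was called.

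The wider machinery of mitochondrial translation also held no called gene. Of the proteins of the mitoribosome under other symbols, DAP3, PTCD3, CHCHD1 and GADD45GIP1 had a row, with log2 differences of -0.10, -0.01, 0.05 and -0.29. Among 22 measured assembly factors, 12 had a higher treated mean and the median was 0.031. Their extremes were FASTKD2, an RNA-binding protein needed for the large subunit, and MRM3, a methyltransferase of its ribosomal RNA. FASTKD2 measured 8.49 and 8.84 in MCP-1-treated cells, against 8.18 and 8.45 in untreated cells, a difference of 0.35. MRM3 measured 8.12 and 8.11 in MCP-1-treated cells, against 8.42 and 8.33 in untreated cells, a difference of -0.26. Both were non-overlapping. Of 15 translation factors, 9 had a higher treated mean with a median of 0.012. MTRFR, a factor that rescues stalled mitoribosomes, was the lowest, with 12.04 and 12.14 in MCP-1-treated cells, against 12.57 and 12.44 in untreated cells. MTRF1, a release factor relative, was the highest at 0.15, with overlapping groups.

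Regulators of mitochondrial genes likewise held no called gene. Of 12 measured, 9 (75%) had a higher treated mean, beside 52.3% of all probe sets, and the median log2 difference was 0.12. Within replicate 1, 7 of the 12 were higher, and within replicate 2, 7, with the same sign in both for 6 (50%). TEFM and PPARGC1B, both counted among the 9, had signal below background. GABPA, the DNA-binding subunit of GABP, measured 9.06 and 9.49 in MCP-1-treated cells, against 8.82 and 9.13 in untreated cells, a difference of 0.30 with overlapping groups. NRF1 measured 8.77 and 8.99 in MCP-1-treated cells, against 8.88 and 8.66 in untreated cells, a difference of 0.11. MYC, a transcription factor that drives ribosome production, measured 11.93 and 12.14 in MCP-1-treated cells, against 12.58 and 12.39 in untreated cells, a difference of -0.45 (95% interval -1.01 to 0.10). Its groups did not overlap, and limma gave an unadjusted p of 0.099 and an adjusted p of 1. TFAM, which packages and transcribes mitochondrial DNA, was at 0.13.

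Products that work with the mitoribosome were set beside it. The 75 nuclear respiratory chain subunit genes had a median log2 difference of -0.092, and 21 (28%) had a higher treated mean, beside 52.3% of all probe sets. Of these 75, 2 were non-overlapping and higher and 21 non-overlapping and lower, beside 16.3% and 15.2% of all probe sets. Signal was above background for 69 of the 75, and COX6B2, among the 2 non-overlapping and higher, was below it. NDUFS3 of complex I was the highest at 0.41, with 11.30 and 11.17 in MCP-1-treated cells, against 10.75 and 10.90 in untreated cells. UQCRQ of complex III was the lowest at -0.44, with 13.05 and 12.32 in MCP-1-treated cells, against 13.13 and 13.12 in untreated cells. The 45 cytosolic ribosomal protein genes with a row under their symbol, not the whole family, had a median of -0.14, with a higher treated mean for 3. Within replicate 1, 12 of them were higher, and within replicate 2, 11, with the same sign in both for 24 (53.3%). Of these 45, 0 were non-overlapping and higher and 18 non-overlapping and lower, beside 16.3% and 15.2% of all probe sets. Their SD was 0.092, against 0.19 for the mitochondrial family. Signal of the cytosolic set was also higher, 11.99 to 17.36, against 5.39 to 13.83 for the mitochondrial family. Its median SD within a group was 0.14 in MCP-1-treated and 0.073 in untreated cells, against 0.20 and 0.11. Whether signal or noise accounts for the narrower spread was not tested. The extremes of the cytosolic set were RPS26 at 0.13 and RPS18 at -0.28. In both of these lists 0 genes were called by limma, and 0 had an unadjusted p under 0.05. Finally, 10 probe sets of the mitochondrial genome, with no symbol listed, had differences between -0.15 and 0.22 with a median of 0.0059.

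**Figure D4:**
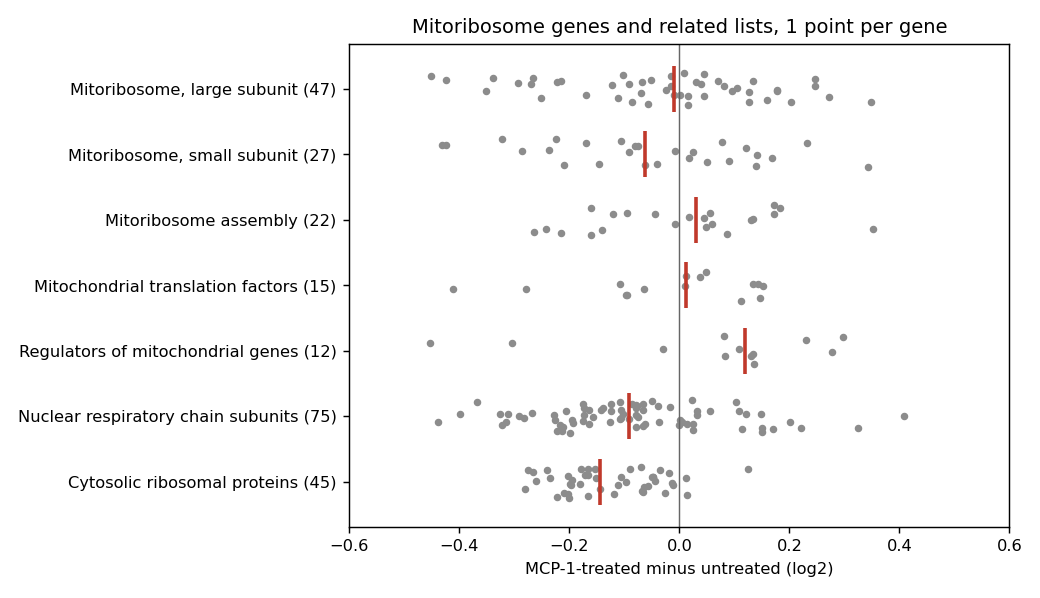
Log2 difference, MCP-1-treated minus untreated, with 1 point per gene and a red bar at the median, for both mitoribosome subunits and 5 related lists (number of genes in brackets). The mitoribosome medians of -0.0099 and -0.062 lie above those of the respiratory chain (-0.092) and cytosolic ribosomal protein genes (-0.14), and all lists but the cytosolic one spread widely on either side of 0.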

How the data were processed

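Total RNA of 4 dishes was labelled and hybridised to 1 Clariom S array each. The submitters' processing notes name Affymetrix Expression Console 1.4 and RMA, and the deposited values are log2 signals per probe set, used here as given. The raw scans were not used, so background correction and normalization were not redone. The table has 24351 probe sets, of which 21448 remained for testing once 2903 control probe sets had been removed. All 74 member symbols matched a current gene. MRPS6, MRPL45 and MRPL53 were not analysed here.

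The test was limma 3.58.1 (R 4.3.3) with Benjamini-Hochberg adjustment. The model held the treatment and the replicate number, since the study's methods compare pairs. This leaves 1 residual degree of freedom beside 9.60 of the prior. The procedure was also run on simulated arrays, with variances drawn from the fitted prior, independent noise and no replicate effect. Such arrays meet the assumptions of the model, so that run says nothing of departures from them in these data. Promoters and figures were made with Python 3.11.15, pandas 2.3.3 and matplotlib 3.10.9. The number of arrays limits the precision. Named were the 6 highest and 6 lowest members above background, the MRPS18 paralogs, MRPS30, and the extremes of each other list. Further genes described under a place, a promoter or a shared start were chosen after their values were seen. The members and lists were chosen with earlier results of these data known. Alternatives were another filter, scaling, variance prior or pairing, and leaving out each array (then with no replicate term).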

Additional observations from a re-analysis of the deposited data

How the results depend on the processing

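Of 352 alternative values, 331 moved by less than the spread between replicates (medians), stayed within 1.5 times (counts) or kept their sign and side of the threshold (single genes). The medians of all members and of the large subunit lie near 0 and changed sign within that spread: leaving out each array gave -0.082 to 0.031 for all members. No alternative called a member after adjustment. The log2 differences behind many of the 331 values could not have moved. Another pairing, variance prior or filter leaves a gene's difference as it is. So does averaging the rows of a gene where each member has 1. The count of 331 is therefore no measure of how stable the results are. The replicate numbers were not shown to pair the dishes: deviations of same-numbered arrays correlated at -0.0466. The fit without the replicate block again gave 0 members at an unadjusted p under 0.05, against 968 of all probe sets. After adjustment that fit called 0 of all probe sets, so its 0 among members could not have come out otherwise. Single members reached an unadjusted p under 0.05 with probe sets below the median left out (1 lower, MRPL21), with a trended robust variance prior (1 lower, MRPS7) and in the methods' t-test, which is paired (1 higher, MRPL15, and 2 lower, MRPL2 and MRPS25, beside 4.53% of all probe sets; 0 of them at 1.5-fold or more). Leaving out each array in turn also drops the replicate term, since 3 arrays leave no residual degree of freedom with it, and assumes that a lone array varies like the other group's. This gave 0 to 4 such lower members, the 4 being without MCP-1-treated replicate 1. The large subunit median then lay between -0.068 and 0.036, the small subunit median between -0.12 and 0.025, and their gap between 0.011 and 0.070. Within replicate pair 2 alone the gap was 0.00092. Without the first untreated array the small subunit median was 0.025 and 44 members had a higher treated mean, and without the second 24 had. Non-overlapping members numbered 14 to 28 higher and 19 to 34 lower, since fewer arrays overlap less often. Signs reversed for MRPS35 (-0.024) and MRPS7 (0.058) without MCP-1-treated replicate 2, and for MRPS18A (0.0047) and MRPS30 (0.061) without untreated replicate 1. Without any 1 array, their ranges were -0.024 to 0.49 for MRPS35, -0.92 to 0.058 for MRPS7, -0.30 to 0.0047 for MRPS18A and -0.24 to 0.061 for MRPS30. The cause of the other shifts was not tested.

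With 2 arrays a group, the number of arrays and the signal of MRPL54 and MRPS31, below background, limit what can be read, and no group was large enough for a check of single outlying samples.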
